A study of Mus musculus with 4 samples.

Results

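The genes of the proteasome were examined in mouse liver after hepatectomy, the surgical removal of part of the liver. Members were all rows of the deposited table whose symbol begins with Psm, a letter from a to g and a digit, which gave 50 of 24421 gene symbols. The control group (2 libraries) came from hepatectomized mice treated with fibrin gel alone, and the gelADSC group (2 libraries) from hepatectomized mice whose fibrin gel held ADSC, adipose-derived stem cells. Both groups therefore share the hepatectomy and the gel, and the comparison asks what the embedded cells add. Strain, age, the extent of the resection, the time after it and the source and number of the ADSC were not stated in the labels. No source says whether the libraries of a group came from separate animals, and p-values therefore measure a spread between libraries that may be technical.

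The proteasome is the protease complex that degrades proteins marked with ubiquitin. Its barrel-shaped core has outer rings of alpha subunits (Psma genes) and inner rings of beta subunits (Psmb genes), and 3 beta subunits, Psmb5, Psmb6 and Psmb7, carry the catalytic sites. A regulatory particle caps the barrel: a base with 6 ATPases (Psmc genes) unfolds substrates, and a lid (Psmd genes) removes their ubiquitin chains. Interferon induces the subunits Psmb8, Psmb9 and Psmb10, which take the places of the catalytic subunits in newly built cores, and the PA28 activator made of Psme1 and Psme2. In hepatocytes the core with constitutive subunits prevails, whereas leukocytes are rich in the inducible ones.

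Values are FPKM, fragments scaled by gene length and library depth, and a log2 change is the mean log2(FPKM + 1) of gelADSC minus that of control. The added 1 makes this change understate differences of genes with low levels. Libraries are called by the number in their column, 1 and 3 for control and 2 and 3 for gelADSC. They held roughly 18100000 to 24400000 reads, read from the smallest steps of low values, at which 1 read in a gene of 2 kb is worth 0.0205 to 0.0276 FPKM. Alb, serum albumin, read 28129 and 31907 FPKM in control libraries 1 and 3 and 22023 and 38330 FPKM in gelADSC libraries 2 and 3. Among 10 hepatocyte markers 0 were called in either direction, though 4 had an unadjusted p under 0.05. Over all 11070 genes tested 4418 had such a p. The log2 change was below 0 in 5 of them and above 0 in 5. Tests used limma on the 11070 genes whose mean level reached 1 FPKM, and "called" means a Benjamini-Hochberg adjusted p under 0.05 over all of them.

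Proteasome genes read lower in gelADSC almost throughout, by a modest amount that few single genes carried past the test. Of 48 members tested 8 fell and 0 rose, which is 16.7% lower, against 17.5% lower and 6.92% higher among all genes tested. The share of members called lower is thus near the background. In 45 of the 48 the log2 change was below 0, as in 7616 of all 11070 genes tested, with a median of -0.48 beside -0.25 for all genes. The groups did not overlap for 39 members in the lower direction and 2 in the higher, where 50.5% and 19.2% of all genes did so. The summed level of all members was 3904 and 3207 FPKM in control libraries 1 and 3 and 2375 and 2475 FPKM in gelADSC libraries 2 and 3, a mean difference of -31.8%. These sums weigh abundant genes such as Psmb4 and Psmd8 most and are not rescaled. Over all tested genes the summed level differed by -1.28%, so the median shift of -0.25 does not show in that sum. Factors that give the libraries a common median ratio were 1.205 and 1.017 for the controls and 0.864 and 0.944 for gelADSC. Division by them would make the difference of -31.8% in the members smaller in size.

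The 8 that fell were Psmd8 and Psmd14 of the lid, Psmb3, Psmb4 and Psmb5 of the core, the activator Psme3, and the assembly chaperones Psmd10 and Psmg4. Psmd8, Psmd10 and Psmb4 were still called when the libraries were brought to a common median ratio, which left 3 members lower and 0 higher, against 8.42% lower and 8.6% higher over all genes. On that scale 33 of 48 members lay below 0, with a median of -0.19. Of the 11068 genes tested on that scale, 5530 that were also tested as deposited lay below 0. Control library 1 weighed most. In 40 of 48 members it read higher than control library 3, with a median log2 difference, control 3 minus control 1, of -0.27 (-0.21 over all genes, 8503 of 11070 of them below 0), and without it only Psmd8 was called, where 3.01% of all genes were called lower.

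**Figure D1:**
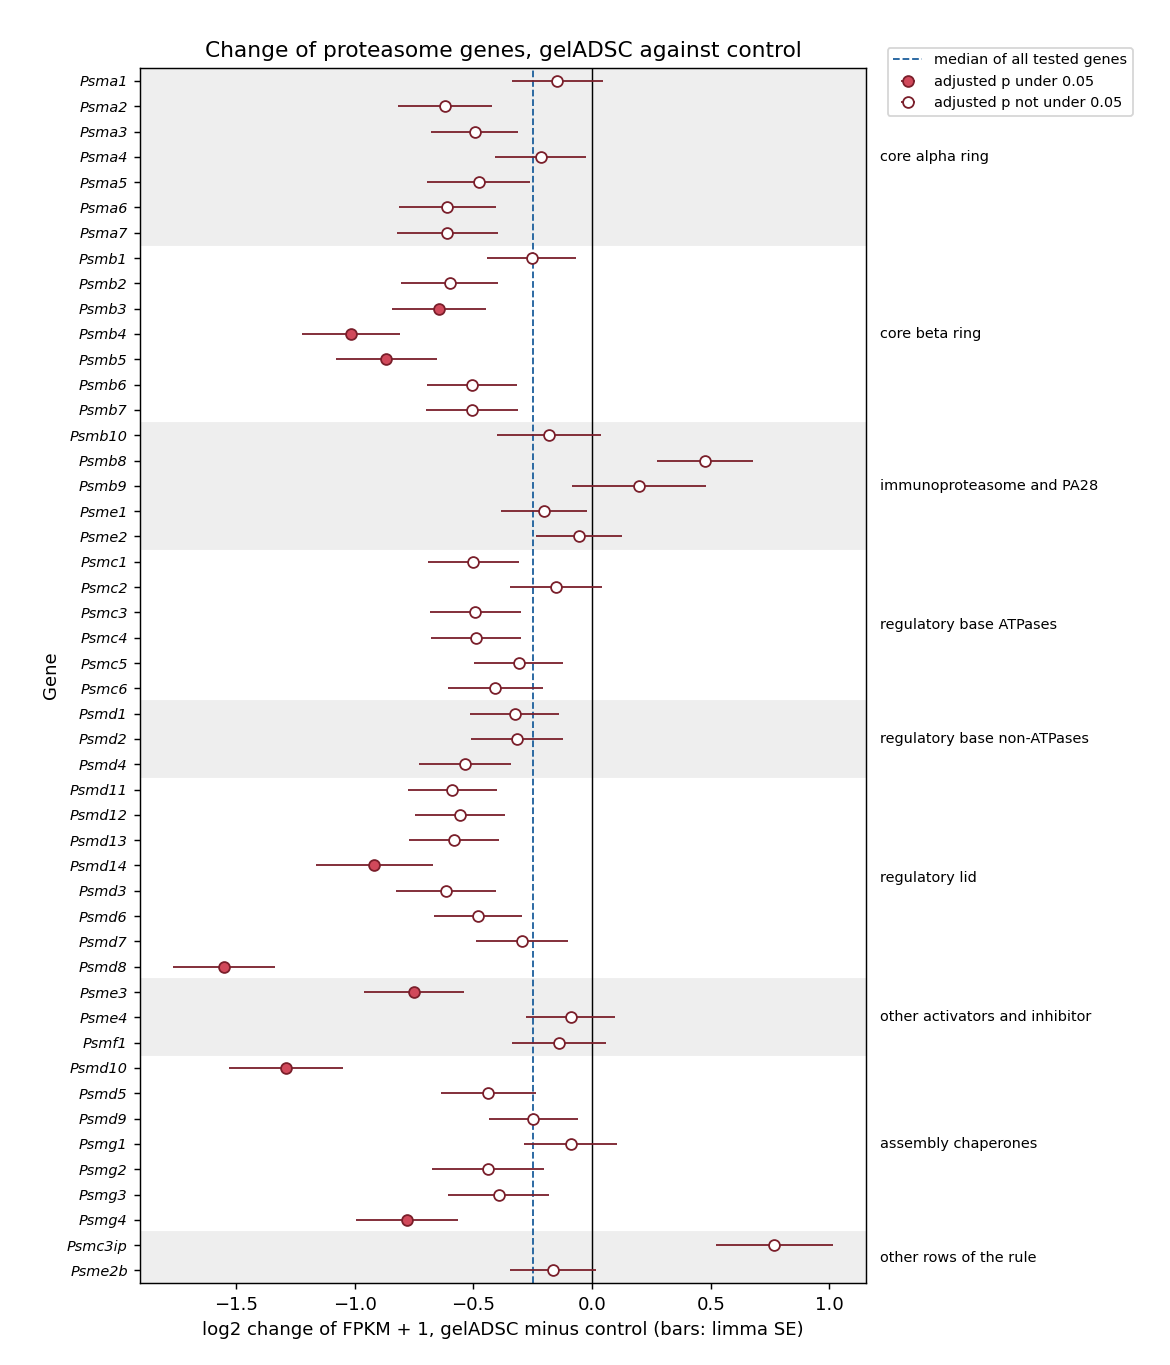
Log2 change of FPKM + 1 (x axis, gelADSC minus control) of the 48 tested proteasome genes (y axis, by class), with limma standard errors as bars and filled points for genes with an adjusted p under 0.05. All 8 filled points lie to the left of the dashed line, the median of all tested genes at -0.25, and Psmd8 lies farthest at -1.55.

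The promoters of 5 members are printed. Psmd8, Psmd10 and Psmb4 had the largest decreases. Psmb5, which fell, and Psmb8, which was not called, are alternative subunits for the same catalytic position. Each stretch covers the 120 bases before the RefSeq start (build GRCm38.p6), 5′ to 3′ on the gene's strand. Psmd8 is at chr7:29180674-29180793 (minus strand), Psmd10 at chrX:140956712-140956831 (minus), Psmb4 at chr3:94886959-94887078 (minus), Psmb5 at chr14:54617996-54618115 (minus) and Psmb8 at chr17:34198075-34198194 (plus). Capitals mark matches to the 4 motifs named after the sequences.
Psmd8: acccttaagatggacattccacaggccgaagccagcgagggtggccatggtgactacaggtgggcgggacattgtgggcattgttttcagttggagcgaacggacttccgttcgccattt
Psmd10: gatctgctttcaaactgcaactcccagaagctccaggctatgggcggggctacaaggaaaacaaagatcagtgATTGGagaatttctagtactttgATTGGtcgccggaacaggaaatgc
Psmb4: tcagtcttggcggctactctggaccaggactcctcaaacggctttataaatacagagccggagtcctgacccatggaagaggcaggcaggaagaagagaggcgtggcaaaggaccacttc
Psmb5: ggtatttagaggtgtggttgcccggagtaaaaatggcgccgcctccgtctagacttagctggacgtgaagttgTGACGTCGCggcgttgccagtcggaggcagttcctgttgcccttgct
Psmb8: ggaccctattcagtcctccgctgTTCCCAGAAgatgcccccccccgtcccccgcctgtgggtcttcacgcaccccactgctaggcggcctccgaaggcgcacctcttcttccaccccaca

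The 4 motifs were counted on both strands in windows from 250 bases before to 50 after the start, each motif on its own, so that overlapping matches count for both. A total of 42 members had a RefSeq window, and Psma8, Psmb1, Psmb2, Psmb7, Psmc3, Psmd3, Psmd7 and Psmg2 had none. The antioxidant response element core, TGACNNNGC, the kind of site bound by the proteasome regulator NRF1 (Nfe2l1), was found in 6 of the 42 (14.3%, against 14.0% of 27025 genes with a window), namely Psmb5, Psmb6, Psmc6, Psmd9, Psmd12 and Psme4. The CCAAT box was found in 15 (35.7%, against 41.1%), of which 5 were alpha subunits and 1 was Psmd10, capitalised above on the opposite strand. The interferon-stimulated response element core, GAAANNGAA, was found in 7 (16.7%, against 9.76%), among which Psme1 was the only inducible gene and Psmb4 has a match that runs across its start. The gamma-activated site, TTCNNNGAA, was found in Psmb8, Psmd2 and Psmg1 (7.14%, against 9.55%). These matches describe letters in the windows and are not binding sites, and genes with a motif were not compared with genes without it.

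The alpha ring forms the gate of the core. Of its 8 genes 7 were tested, and 0 were called in either direction, with a median log2 change of -0.49. An unadjusted p under 0.05 was found in 4 of them, and in 4418 of all 11070 genes tested. Psma4 had the highest mean level of the ring over the 4 libraries, though Psma2 and Psma6 were above it in the control mean. Psma4 read 127 and 105 FPKM with gel alone and 96.5 and 102 FPKM in gelADSC (log2 change -0.22, SE 0.19, limma adjusted p = 0.43). Its groups did not overlap, but the gap between them was smaller than the distance between the controls. Psma2 came closest to the threshold, at 132 and 105 against 76.3 and 76.1 FPKM (limma adjusted p = 0.0519). Without control library 3, Psma2, Psma6 and Psma7 were called lower (limma adjusted p = 0.0492, 0.0478 and 0.0435). Psma5 had the lowest level of the ubiquitous alpha subunits, between 19.4 and 35.2 FPKM. It shares 54.5% of the 50-base stretches of its transcripts with other annotated genes, so its level is uncertain. Psma8, the alpha subunit of the testis, stayed between 0.264 and 0.726 FPKM and was not tested.

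The beta ring held 3 of the 8 calls, among 7 genes tested. Over all genes 17.5% were called lower. The median log2 change of the ring was -0.60, and in all 7 the gelADSC values lay under both controls, as in 50.5% of all genes. Psmb4, a structural subunit with no catalytic site, had the highest mean level of all 50 members over the 4 libraries, though Psmd8 was above it in the controls and Psmb6 and Psmb7 in gelADSC. It read 247 and 190 FPKM in control libraries 1 and 3 and 103 and 111 FPKM in gelADSC libraries 2 and 3. The gelADSC values lay close together and well under both controls, 2.05-fold lower in the mean (219 ± 40.3 against 107 ± 5.14 FPKM, SD, n = 2 each), and Psmb4 fell with a log2 change of -1.01 (SE 0.21, limma adjusted p = 0.0105). The adjusted p was 0.0907 without control library 1.

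Psmb5, the subunit with the chymotrypsin-like site, read 116 and 92.4 FPKM with gel alone and 49.97 and 63.6 FPKM in gelADSC. It fell with a log2 change of -0.87 (SE 0.21, limma adjusted p = 0.0222). The call was lost without control library 1 (0.158) or gelADSC library 2 (0.109), with no filter (0.068), and when libraries were rescaled by median ratio (0.0588) or by quantiles (0.0618). Psmb3, another structural subunit, read 150 and 120 against 82.4 and 88.1 FPKM and fell with a log2 change of -0.65 (SE 0.20, limma adjusted p = 0.0457). That call ended with a pseudocount of 5 (0.0517), no trend (0.0581), no filter (0.0837), quantile normalization (0.0864), median ratio scaling (0.123) and without control library 1 (0.208), gelADSC library 2 (0.186) or gelADSC library 3 (0.0965). Psmb5 and Psmb3 share 54.1% and 55.8% of the 50-base stretches of their transcripts with other annotated genes, so how their reads were divided is uncertain. Psmb4 and Psmd8 share none. Of the 50 members 8 share more than 20%, namely Psma3, Psma5, Psmb3, Psmb5, Psmd2, Psmg3, Psme2 and Psme2b.

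The other catalytic subunits were not called. Psmb6, the subunit with the caspase-like site, read 171 and 153 against 109 and 118 FPKM (log2 change -0.51, limma adjusted p = 0.0817). Psmb7, the subunit with the trypsin-like site, read 178 and 161 against 110 and 129 FPKM (-0.51, limma adjusted p = 0.0886). In both genes each gelADSC library read under each control library. Psmb1 and Psmb2 were not called either, with log2 changes of -0.26 and -0.60, and Psmb11, the catalytic subunit of the thymus, was listed at 0 in all 4 libraries.

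**Figure D2:**
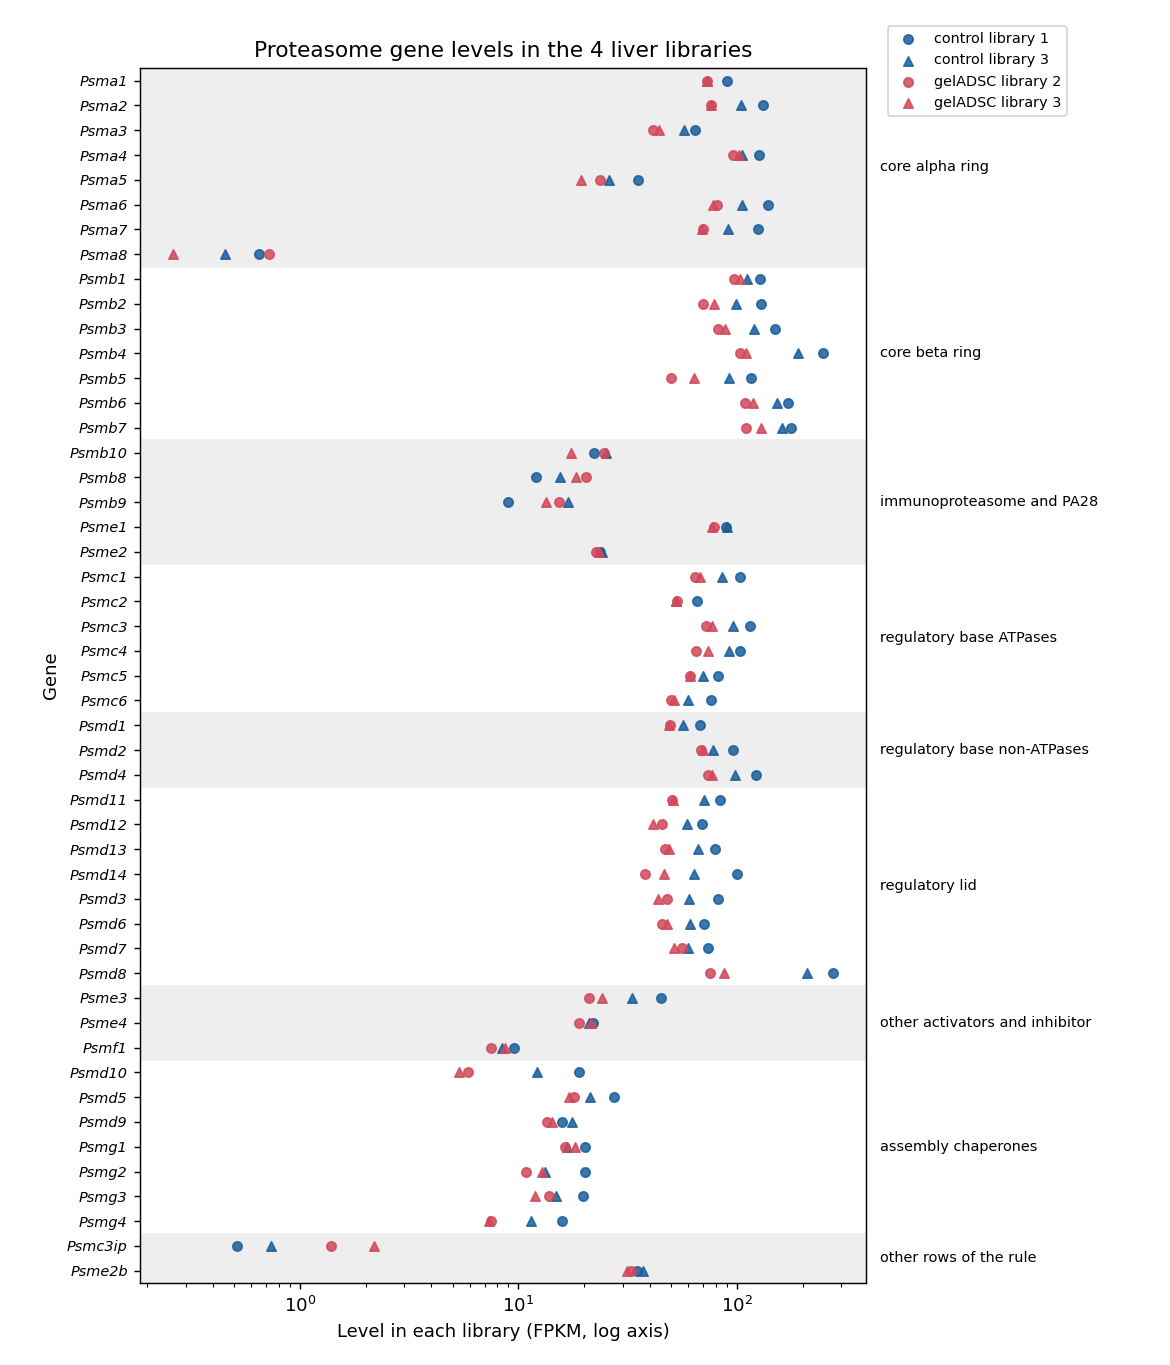
Level in each library (x axis, FPKM, log axis) of 49 proteasome genes (y axis, by class), with circles and triangles for the 2 libraries of each group. Psmb11, listed at 0, is not drawn. In most core and regulatory genes the gelADSC points lie to the left of the control points and control library 1 lies farthest to the right, while Psmb8 shows the opposite order.

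The base of the regulatory particle held 0 called genes among its 6 ATPases and its 3 other Psm subunits. The median log2 changes were -0.45 and -0.33. An unadjusted p under 0.05 was found in 3 and 1 of them, and in 4418 of all 11070 genes tested. Psmc3 had the highest level of the ATPases, at 115 and 96.1 FPKM with gel alone and 71.9 and 77.3 FPKM in gelADSC (log2 change -0.49, limma adjusted p = 0.0931). The ATPases lay within a narrow band of changes, from -0.50 for Psmc1 to -0.15 for Psmc2, whose groups overlapped. Psmd4, a ubiquitin receptor, had the highest level of the other base subunits, at 122 and 98.5 against 73.7 and 76.7 FPKM (-0.54, limma adjusted p = 0.0765). Adrm1, a further ubiquitin receptor of the base outside the Psm symbols, read 72.2 and 54.2 against 48.2 and 40.4 FPKM (limma adjusted p = 0.12).

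In the lid 2 of 8 genes fell, where 17.5% of all genes were called lower. The gelADSC values of all 8 lay under both controls, as in 50.5% of all genes. The median log2 change was -0.59. An unadjusted p under 0.05 was found in 7 of the 8, and in 4418 of all 11070 genes tested. Psmd8, which joins last in lid assembly, read 275 and 208 FPKM with gel alone and 75.0 and 87.4 FPKM in gelADSC. In the controls it was the most abundant proteasome transcript per length, ahead of Psmb4. In the gelADSC mean it lay below Psmb7, Psmb6, Psmb4, Psmb1, Psma4 and Psmb3. Psmd8 fell 2.98-fold in the mean (242 ± 47.0 against 81.2 ± 8.78 FPKM, SD, n = 2 each), with a log2 change of -1.55 (SE 0.21, limma adjusted p = 0.00195). On rescaling by median ratio the adjusted p was 0.0152, and without control library 1 it was 0.0385. When both were applied together it was 0.0717, and under that setting 0 of 48 members were called.

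Psmd14, the deubiquitinating enzyme of the lid, read 100 and 63.9 against 38.0 and 46.3 FPKM and fell with a log2 change of -0.92 (SE 0.25, limma adjusted p = 0.0299). The controls lay farther apart than the distance from control library 3 to gelADSC library 3. The call was lost without control library 1 (0.18) or gelADSC library 2 (0.0666), with no filter (0.096), and when libraries were rescaled by median ratio (0.079) or by quantiles (0.107). Psmd3, Psmd6, Psmd7, Psmd11, Psmd12 and Psmd13 were not called, with log2 changes from -0.62 for Psmd3 to -0.30 for Psmd7, and Psmd3 was called lower without control library 3 (limma adjusted p = 0.0465). Psmd11, a scaffold subunit at 83.4 and 70.5 against 50.5 and 50.9 FPKM, was nearest to the threshold (limma adjusted p = 0.0524).

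Assembly chaperones bind subunits during construction and leave the finished particle. Of 7 such genes 2 fell, where 17.5% of all genes were called lower, with a median log2 change of -0.44. Psmd10, also called gankyrin, guides assembly of the base and is known for its overproduction in liver cancer. It read 19.0 and 12.1 FPKM with gel alone and 5.91 and 5.35 FPKM in gelADSC. Both gelADSC values were under the lower control, and Psmd10 fell 2.76-fold in the mean, with a log2 change of -1.29 (SE 0.24, limma adjusted p = 0.00751). It was still called on rescaling by median ratio (0.0303), and no longer with no filter (0.0521) or without control library 1 (0.0647).

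Psmg4, a chaperone of the alpha ring, read 15.8 and 11.46 against 7.47 and 7.35 FPKM and fell with a log2 change of -0.78 (SE 0.21, limma adjusted p = 0.032). It was no longer called without control library 1 (0.164), gelADSC library 2 (0.101) or gelADSC library 3 (0.102), with no filter (0.0869), or on rescaling by median ratio (0.0597) or quantiles (0.0653). The other chaperones of the alpha ring, Psmg1, Psmg2 and Psmg3, were not called, with log2 changes of -0.09, -0.44 and -0.39. Psmd5, a base chaperone with the highest level of the class, read 27.3 and 21.2 against 18.1 and 17.0 FPKM (limma adjusted p = 0.142), and Psmd9, a further base chaperone, 15.9 and 17.6 against 13.6 and 14.3 FPKM (0.353).

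Among the remaining regulators Psme3, the nuclear activator PA28γ, read 45.1 and 33.2 FPKM with gel alone and 21.2 and 24.1 FPKM in gelADSC. It fell with a log2 change of -0.75 (SE 0.21, limma adjusted p = 0.035). It was no longer called without control library 1 (0.187) or gelADSC library 2 (0.153), with no filter (0.085), or on rescaling by median ratio (0.0701) or quantiles (0.0995). Psme4, the activator PA200, read 21.8 and 21.2 against 18.9 and 21.4 FPKM (limma adjusted p = 0.749), and Psmf1, the regulator PI31, 9.55 and 8.46 against 7.51 and 8.66 FPKM (0.633). In both genes the groups overlapped.

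Of the 5 interferon-inducible genes 0 were called in either direction. An unadjusted p under 0.05 was found in 1 of the 5, and in 4418 of all 11070 genes tested. The inducible genes had a median log2 change of -0.05, from -0.20 for Psme1 to 0.48 for Psmb8. The other 41 tested genes of the complex, its regulators and its chaperones had a median of -0.49. Without control library 1 these medians were -0.21 and -0.38, and 4 of the 5 inducible genes lay below 0. Whether the classes differ was not tested beyond the ratios given next. Psmb8 read 12.1 and 15.4 FPKM with gel alone and 20.5 and 18.4 FPKM in gelADSC, so that both gelADSC libraries were higher (log2 change 0.48, SE 0.20, limma adjusted p = 0.117). Psmb9 read 8.96 and 16.9 against 15.4 and 13.4 FPKM (limma adjusted p = 0.633), with control library 1 far under the other 3 libraries. Psmb10 read 22.2 and 25.2 against 24.7 and 17.4 FPKM (limma adjusted p = 0.574), with overlapping groups.

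Psme1 read 89.6 and 89.9 against 78.9 and 76.9 FPKM (log2 change -0.20, limma adjusted p = 0.428), the highest levels of the inducible genes. Psme2 read 23.6 and 24.2 against 22.6 and 23.4 FPKM (-0.05, limma adjusted p = 0.85), and its copy Psme2b, which the rule also finds, 35.02 and 37.0 against 32.6 and 31.4 FPKM (limma adjusted p = 0.528). Psme2 shares 54.9% of the 50-base stretches of its transcripts with Psme2b, so the division between them is uncertain. Their sum was 58.6 and 61.2 FPKM with gel alone and 55.2 and 54.8 FPKM in gelADSC. Psmc3ip, which the rule finds by its symbol, encodes a partner of recombinases and is no proteasome subunit. It read 0.516 and 0.739 against 1.39 and 2.196 FPKM (log2 change 0.77, limma adjusted p = 0.0538), and was called higher with no mean-variance trend (0.042) or without gelADSC library 2 (0.0102).

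Ratios within a library do not depend on its scaling, apart from the pseudocount. Psmb8 amounted to 10.4% and 16.7% of the Psmb5 level in the controls and to 41.0% and 28.9% in gelADSC. Both gelADSC libraries were above both controls, with a difference in mean log2 ratio of 1.34. Control library 3 alone had a log2 ratio of -2.51, beside means of -2.84 for control and -1.49 for gelADSC. Psmb5 shares 54.1% of its 50-base stretches with other annotated genes, so its part in this ratio is uncertain. Psmb9 amounted to 5.23% and 11.1% of Psmb6 in the controls and to 14.1% and 11.3% in gelADSC, where control library 3 nearly reached gelADSC library 3. That log2 difference was 0.70, and 0.20 without control library 1. Psmb10 amounted to 12.5% and 15.7% of Psmb7 in the controls and to 22.5% and 13.6% in gelADSC, with overlapping groups (log2 difference 0.33, and -0.03 without gelADSC library 2).

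For the activators, Psme1 stood at 199% and 271% of the related Psme3 in the controls and at 373% and 319% in gelADSC, a log2 difference of 0.55 (0.33 without control library 1). For Psmb8, Psmb9 and Psme1 the groups did not overlap, which gives p = 0.333 in a two-sided exact permutation test, the smallest that 2 libraries against 2 allow. The value for Psmb10 was p = 0.667 in the same exact test. Adjusted over the 4 ratios by Benjamini-Hochberg, these exact p-values were 0.444 and 0.667, and none could pass a threshold of 0.05 in this design. The inducible genes made up 8.49% and 12.4% of the summed level of the 6 catalytic genes in control libraries 1 and 3, and 18.4% and 13.7% in gelADSC libraries 2 and 3. Over these libraries the summed inducible level ran from 43.2 to 60.5 FPKM and the summed constitutive level from 465 and 406 FPKM down to 269 and 311 FPKM.

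**Figure D3:**
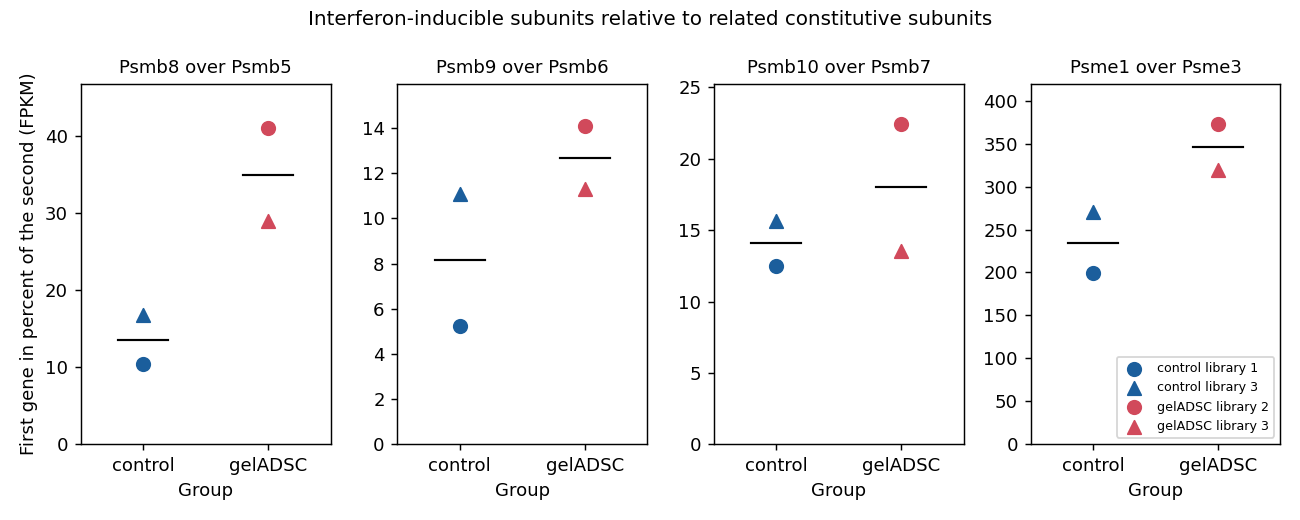
Level of each inducible gene in percent of a related constitutive gene (y axis, ratio of FPKM, each panel from 0) in the 2 control and 2 gelADSC libraries (x axis), with bars at the group means. Psmb8 over Psmb5 runs from 10.4% and 16.7% to 41.0% and 28.9%, and the groups overlap only for Psmb10 over Psmb7.

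Markers of other cells were read beside the inducible subunits. In bulk samples fewer cells of a type cannot be told apart from less RNA per cell. Ptprc, the common leukocyte antigen, read 1.35 and 1.70 FPKM with gel alone and 3.85 and 1.59 FPKM in gelADSC. The summed level of 14 leukocyte markers was 65.3 and 71.1 FPKM with gel alone and 84.6 and 53.5 FPKM in gelADSC, with 0 of 8 tested markers called. The other 6, the lymphocyte markers Cd3e, Cd3g, Nkg7, Cd79a, Cd79b and Ms4a1, were too low to be tested. Each read higher in both gelADSC libraries than in both controls, as did 19.2% of all tested genes. That share was not computed for genes as low as these. Their control values were 0 or near the level of single reads, as 1 read in a gene of 2 kb is worth 0.0251 and 0.0276 FPKM in control libraries 1 and 3. Cd79a, a B cell receptor component, read 0.0756 and 0.0832 against 0.525 and 0.898 FPKM, and Nkg7, of cytotoxic lymphocytes, 0.0617 and 0.0679 against 0.302 and 0.549 FPKM. Cd79b read 0 and 0.0461 against 0.479 and 0.829 FPKM, and Cd3g, of T cells, was listed at 0 in both controls and at 0.160 and 0.534 FPKM in gelADSC. The sum of all 14 was carried by more abundant markers such as Lcp1 and Cd52, whose groups overlapped. Of 12 Kupffer cell and macrophage markers 2 were lower (summed 440 and 466 against 447 and 291 FPKM), and of 9 monocyte and neutrophil markers 1 was lower (177 and 194 against 276 and 86.2 FPKM).

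The summed level of 27 interferon regulated genes was 322 and 422 FPKM with gel alone and 371 and 272 FPKM in gelADSC. Of 26 tested 0 rose and 1 fell, Gbp2, an interferon-induced GTPase (log2 change -1.04, limma adjusted p = 0.0182, and 0.109 with median ratio scaling). Of the other markers, endothelial cells had 2 of 8 higher and 1 lower (summed 104 and 95.4 against 103 and 98.3 FPKM), and stellate cells and fibroblasts 3 of 9 higher and 0 lower (161 and 75.9 against 144 and 119 FPKM). Of 6 bile duct markers 0 were higher and 3, Sox9, Spp1 and Cldn4, were lower (summed 192 and 315 against 57.8 and 49.6 FPKM). Spp1 made up most of that sum, at 150 and 298 against 52.1 and 43.5 FPKM, while the groups overlapped for Epcam and Krt7. For comparison with these marker counts, 17.5% of all genes were called lower and 6.92% higher. The part of these cell types in the proteasome values was not tested.

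Further genes of the pathway were taken from 6 lists with 111 distinct genes, of which 109 were tested. They held 17 lower (15.6%) and 3 higher genes (2.75%), neither share above that of all genes (17.5% and 6.92%), with a median log2 change of -0.36. With median ratio scaling 5 were lower and 4 higher, and without control library 1 the numbers were 2 and 0. Proteins that act at the proteasome without a Psm symbol had 3 of 14 lower and 0 higher, with a median of -0.51. They were Ubxn1, a ubiquitin-binding cofactor of VCP (148 and 101 against 46.0 and 74.1 FPKM, log2 change -1.05, limma adjusted p = 0.0285), Txnl1, a thioredoxin-like protein bound to the regulatory particle (-0.90, limma adjusted p = 0.0173), and Dnajb2, a co-chaperone (-0.66, limma adjusted p = 0.0407). Pomp, which helps to build the core, read 162 and 150 against 109 and 117 FPKM (limma adjusted p = 0.099).

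Genes of ubiquitin and its conjugation had 6 of 22 lower and 0 higher, where 17.5% of all genes were called lower and 6.92% higher. Their median log2 change was -0.45. Rps27a, a fusion of ubiquitin and a ribosomal protein, read 62.6 and 43.8 FPKM with gel alone and 17.6 and 22.3 FPKM in gelADSC and fell with a log2 change of -1.36 (limma adjusted p = 0.00492). Ubb, a polyubiquitin gene, was not called (limma adjusted p = 0.73), with a log2 change of -0.10. The conjugating enzymes Ube2g1 and Ube2g2 fell with log2 changes of -0.78 and -0.76 (limma adjusted p = 0.0224 and 0.0249). Shuttles and the VCP machinery, which bring substrates to the proteasome, had 5 of 20 lower and 1 higher, beside the same shares of all genes. Ubqln2, a ubiquitin shuttle, read 17.4 and 20.7 against 5.48 and 6.03 FPKM and fell with a log2 change of -1.57 (limma adjusted p = 0.00137). Get4, a partner of Bag6, fell with -1.30 (limma adjusted p = 0.00312).

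Ddi2, the protease that cleaves and thereby activates NRF1, rose from 8.83 and 8.61 FPKM to 17.5 and 19.8 FPKM (log2 change 1.01, SE 0.19, limma adjusted p = 0.00765). Its gelADSC values were above both controls, against the direction of most members. NRF1 itself, Nfe2l1, read 44.0 and 38.9 against 37.1 and 30.7 FPKM (limma adjusted p = 0.302), and its relative Nfe2l2 59.8 and 41.4 against 34.2 and 30.0 FPKM (0.0751). Of 18 tested regulators 1 rose, Ddi2, and 2 fell, where 6.92% of all genes were called higher and 17.5% lower. The 2 that fell were the small MAF partners Maff and Mafk (log2 changes -1.76 and -1.40, limma adjusted p = 0.0251 and 0.00638). Genes of MHC class I antigen processing, which receives peptides from the proteasome, had 2 of 12 higher and 0 lower, against the same shares. The median of these genes was -0.25, with 8 of the 12 below 0. In 6 of them, which were not called, both gelADSC libraries read under both controls (50%, against 50.5% of all genes). Among these 6 were the peptide transporter genes Tap1 (log2 change -0.63, limma adjusted p = 0.0709) and Tap2 (-0.44, limma adjusted p = 0.143). B2m, the light chain of class I molecules, rose from 696 and 732 FPKM to 1185 and 1237 FPKM (log2 change 0.76, limma adjusted p = 0.0319), and Erap1, a peptide-trimming enzyme, with 0.73 (limma adjusted p = 0.0287).

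Of these named pathway genes, Ubqln2 and Get4 were the only ones still called without control library 1 (limma adjusted p = 0.0247 and 0.0458). With median ratio scaling the calls of Ubxn1 (0.0936), Dnajb2 (0.117), Ube2g1 (0.0541), Ube2g2 (0.0539), Maff (0.118) and Gbp2 (0.109) also ended, and with quantile normalization those of Txnl1 (0.0571) and B2m (0.0579). With no filter Rps27a, Ubqln2, Get4 and Ddi2 were still called and the other 10 were not. Leaving out any 1 of the other 3 libraries kept the calls of Ubqln2, Get4, Rps27a, Ddi2, Mafk and Maff, while Ubxn1, Txnl1, Dnajb2, Ube2g1, Ube2g2, B2m, Erap1 and Gbp2 each lost theirs without at least 1 of them.

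**Figure D4:**
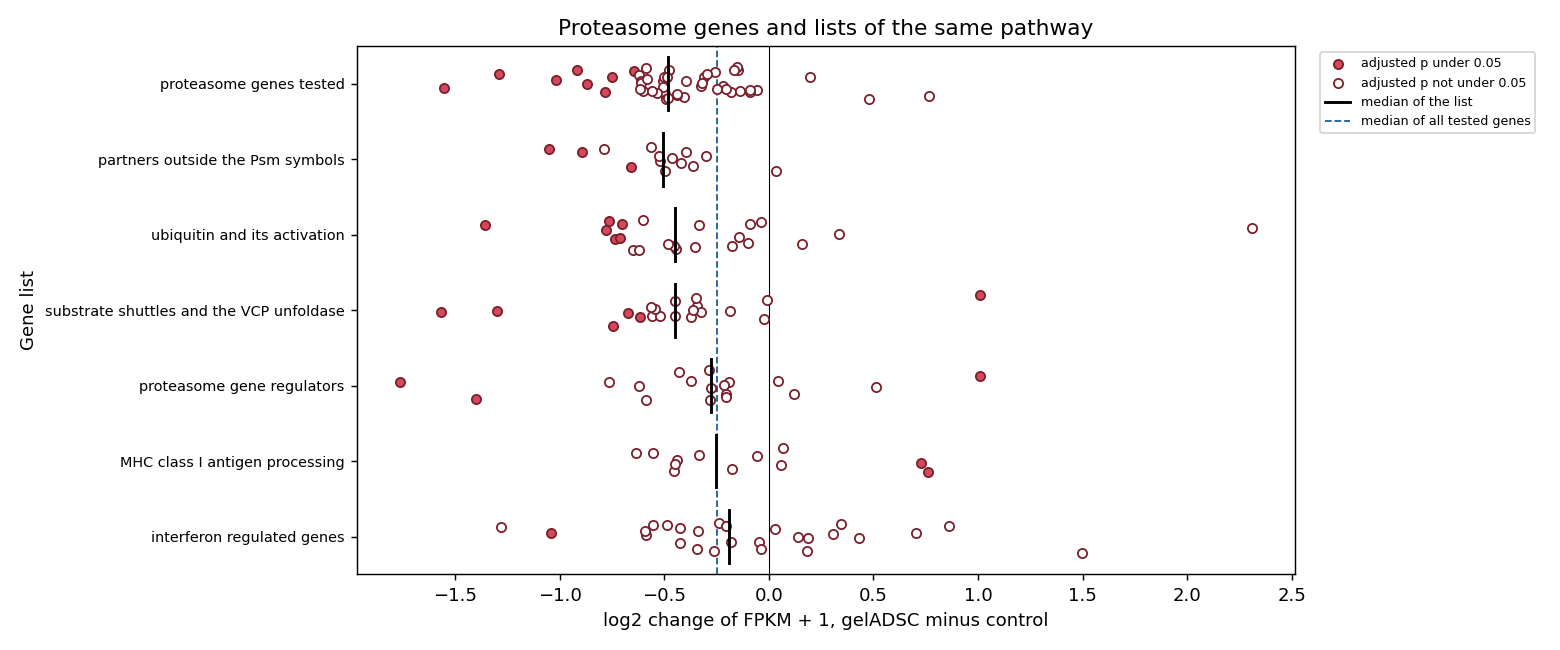
Log2 change of FPKM + 1 (x axis, gelADSC minus control) of tested genes in the proteasome and in 6 lists of the same pathway (y axis), with filled points for genes with an adjusted p under 0.05, black bars for list medians and a dashed line for the median of all tested genes at -0.25. The medians of the proteasome genes (-0.48), of its partners (-0.51), of ubiquitin genes (-0.45) and of shuttles (-0.45) lie to the left of the dashed line, and those of regulators, MHC class I and interferon genes lie near it.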

How the data were processed

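RNA of 4 liver libraries was compared, 2 of each group. The deposited table gives 1 value per gene symbol and library, with no unit in the header. These values, as the authors deposited them, were read as FPKM because the submitters' processing notes name Cufflinks 2.2.1, beside Trimmomatic 0.38 and TopHat2 2.1.1, and because their smallest step depends on the gene. The order and settings of these tools and the annotation were not stated. The build named there, hg19, is human and cannot be the reference of mouse symbols, so coordinates are printed only for promoters and come from RefSeq. Column numbers (1 and 3, 2 and 3) do not match the titles, so only groups were taken from them.

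Relative depth was read from the most frequent ratio of values under 0.2 FPKM, and approximate totals from GENCODE M21 exon lengths of genes with 1 transcript.

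Genes reaching a mean of 1 FPKM were tested with limma 3.58.1 in R 4.3.3 (mean-variance trend, two-sided) on log2(FPKM + 1), over the whole table, and the fit was tested on simulated data. Alternatives were pseudocounts of 0.1 and 5, no filter, median ratio scaling, quantile normalization, no trend and leaving out each library. Median ratio scaling without control library 1 was added after seeing the data. Scaling removes the shift of -0.25 in the median of all genes.

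The members and lists were chosen with earlier results of these data known. Named genes are the inducible ones and their counterparts, the largest called change in each direction and the highest level in each class, untested members, and the 3 largest called changes in each pathway list. Psma2, Psma3, Psma5, Psma6, Psma7, Psmb1 to Psmb3, Psmc1, Psmc2, Psmd2 and the other lid, chaperone and regulator genes were named after their values were seen. So were Adrm1, Pomp, Ubb, Nfe2l1, Nfe2l2, Tap1, Tap2 and all markers except Alb and Ptprc. All list symbols were matched except Ly6g.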

Additional observations from a re-analysis of the deposited data

How the results depend on the processing

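The number of proteasome genes called lower was 8 as deposited, 2 with no filter, and 3 on rescaling by median ratio or by quantiles. Leaving out 1 library gave 1 to 12, and median ratio scaling without control library 1 gave 0, with 76 genes higher and 40 lower over the whole table. Rows of the Psm rule called higher numbered 0, except for 1 with no trend and 0 to 1 with 1 library left out, and that 1 was Psmc3ip, which is no subunit. Pathway genes called lower numbered 17, then 3 with no filter, 5 on rescaling by median ratio, 4 on rescaling by quantiles, 2 to 15 with 1 library left out and 0 with scaling without control library 1. Those called higher numbered 3, then 1 with no filter, 0 to 5 with 1 library left out and 0 with scaling without control library 1. Over all genes 1936 were lower and 766 higher as deposited. The lower ones numbered 730 with no filter, 932 by median ratio, 1000 by quantiles and 331 to 1708 with 1 library left out, and the higher ones 303 to 775. The median of proteasome genes relative to all genes was -0.23, then -0.28 with a pseudocount of 5, -0.42 with no filter, -0.16 with quantile normalization, -0.18 with scaling without control library 1 and -0.25 to -0.20 with 1 library left out. The cause of these shifts was not tested. No called proteasome or named pathway gene changed direction under any of these settings. The ratios of inducible to constitutive genes moved by less than the spread between libraries. With 2 libraries a group, leaving out 1 cannot move a ratio beyond that spread, and rescaling hardly changes a ratio within a library. No stability of the ratios can therefore be read from this. That of Psmb10 to Psmb7 went from 0.33 to -0.03 on the log2 scale without gelADSC library 2, and that of Psmb9 to Psmb6 shrank without control library 1.

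With 1 library left out, the lone library of its group is assumed to vary like the others. No paired analysis was possible because the columns carry the numbers 1 and 3 in control and 2 and 3 in gelADSC and so share only 1 number. Precision is limited by 2 libraries a group. Every member except Psma8, Psmb11 and Psmc3ip read above 5 FPKM in every library.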
